A study of Mus musculus with 6 samples.

Results

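Solute carriers are the membrane proteins, outside the pumps and channels, that move nutrients, ions, metals, nucleotides and vitamins into and out of cells and between their compartments. Their genes carry symbols that begin with Slc, followed by a family number that groups them by the substrate they carry and by sequence. Of 273 such genes with at least 1 single-gene probe set on the array, the 120 described here are those whose brightest single-gene probe set had a mean intensity of 30 or more over all 6 arrays, and the other 153 fell below that level. The genes were thus chosen by their mean intensity over both genotypes, which is a description and not a result. The 120 genes belong to 39 families, counting the Slco genes as 1 family, and were gathered into 10 substrate classes by family number. A few carry the prefix only by name: Slc9a3r1 and Slc9a3r2 encode scaffold proteins that bind an exchanger, and Slc4a1ap a protein that binds an anion exchanger.

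The RNA came from whole pituitary glands of male C57BL/6J mice 8 to 12 weeks old, either Bmal1-/- (3 arrays, replicates 4 to 6) or wild type (3 arrays, replicates 1 to 3). BMAL1 is the transcription factor at the centre of the circadian clock, and the labels describe the Bmal1-/- animals as clock-deficient, without naming the allele further. The mice lived in cycles of 12 h of light and 12 h of darkness and were killed at zeitgeber time 12, when the lights went off. Each array holds RNA from a pool of 3 glands, so n = 3 pools per genotype in every comparison and the number of arrays limits the precision. A whole gland mixes cell types, so fewer cells of a type and less RNA per cell cannot be told apart.

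Pearson's r between arrays over the tested probe sets was 0.985 to 0.986 within Bmal1-/-, 0.980 to 0.982 within wild type and 0.970 to 0.976 between genotypes. The probe set of Arntl, the gene for BMAL1, read higher on the arrays labelled Bmal1-/-, at 112.1, 102 and 127.5, against 39.6, 51.7 and 38.6 in wild type. This goes against the label, but no source used here says whether the probe set covers the deleted exons, so it is no check of the knockout. Known targets of BMAL1 were lower on the same arrays: Nr1d2 averaged 78.4 ± 13.9 on the arrays labelled Bmal1-/- and 1273 ± 174 in wild type (log2 fold change -3.77), and Dbp 68.6 ± 11.1 and 440.2 ± 59.1 (log2 fold change -2.43). Every direction below is therefore that of the arrays labelled Bmal1-/-. The tissue label was checked against hormone genes: Gh averaged 16017 on the arrays labelled Bmal1-/- and 19355 in wild type, and Prl 12777 and 13830.

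In endocrine cells, carriers supply the amino acids and sugars for hormone synthesis, load granules and the Golgi with zinc and sugar nucleotides, and exchange metabolites between cytosol and mitochondria. Many can work only with partners that set up their driving gradients, such as the sodium pump and the vacuolar proton pump. The families contributed unequally to the 120 genes, which describes the choice by intensity and does not compare transcript levels between genes. Over all genes of the array, 7191 of 12393 (58%) reached 30. The mitochondrial carriers (family 25) had 27 of 33 genes at 30 or more, the zinc and metal importers (family 39) 8 of 10, and the nucleotide sugar transporters (family 35) 12 of 18. Fewer passed among the organic cation and anion transporters (family 22, 2 of 18), the neurotransmitter transporters (family 6, 3 of 15) and the Slco genes (1 of 11).

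Of the 120 genes, 11 changed between genotypes at a limma adjusted p under 0.05, and 10 of these were lower on the arrays labelled Bmal1-/-. That is 9.17% of the genes called, against 5.54% of all 13576 tested probe sets and 6.09% of the 7191 genes whose brightest probe set averaged 30 or more. By direction, 8.33% were lower, against 2.78% of all tested probe sets and 2.77% of those 7191 genes. The share called higher was 0.833%, against 2.75% and 3.32%. The difference between these shares was not tested. Those called lower include Slc45a3 and Slc7a5, which reached the mean of 30 only through wild type, so the choice by intensity bound their direction. The genes that fell were Slc45a3, Slc7a5, Slc39a11, Slc39a14, Slc33a1, Slc35f6, Slc46a3, Slc9a3r2, Slc25a33 and Slc35a5, and Slc25a36 alone rose. One of the 120, Slc45a3, changed over 2-fold on the log2(intensity + 16) scale.

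**Figure D1:**
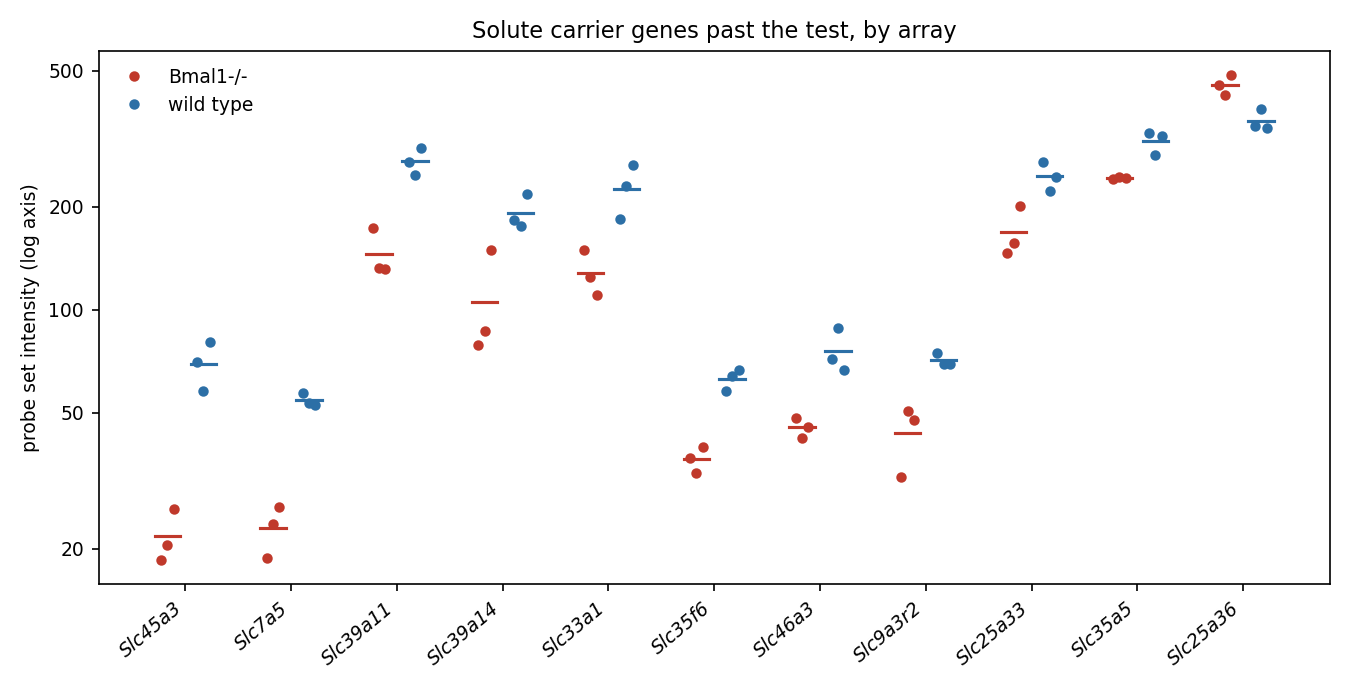
Probe set intensity (log axis) of the 11 genes that passed the test, ordered by log2 fold change, with a point for each array and a bar at the mean of 3 arrays. The genotypes do not overlap at any of the 11, and Slc25a36 is the single gene that is higher on the arrays labelled Bmal1-/-.

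The log2 fold change lay within 0.25 of 0 for 83 of the 120 genes (69.2%), against 5407 of the 7191 genes (75.2%). Their median was -0.04, with quartiles of -0.22 and 0.06, against 0.01 with quartiles of -0.14 and 0.14 for the 7191 genes. Values were below 0 for 70 carriers (58.3%) and above 0 for 50, against 3494 (48.6%) and 3697 of the 7191 genes. The genotypes did not overlap at 24 carriers that were lower and at 13 that were higher, which is 20% and 10.8%, against 13.3% and 12.6% of all tested probe sets and 12.7% and 14.6% of the 7191 genes. The median mean intensity was 97.0 for the carriers and 123 for the 7191 genes.

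**Figure D2:**
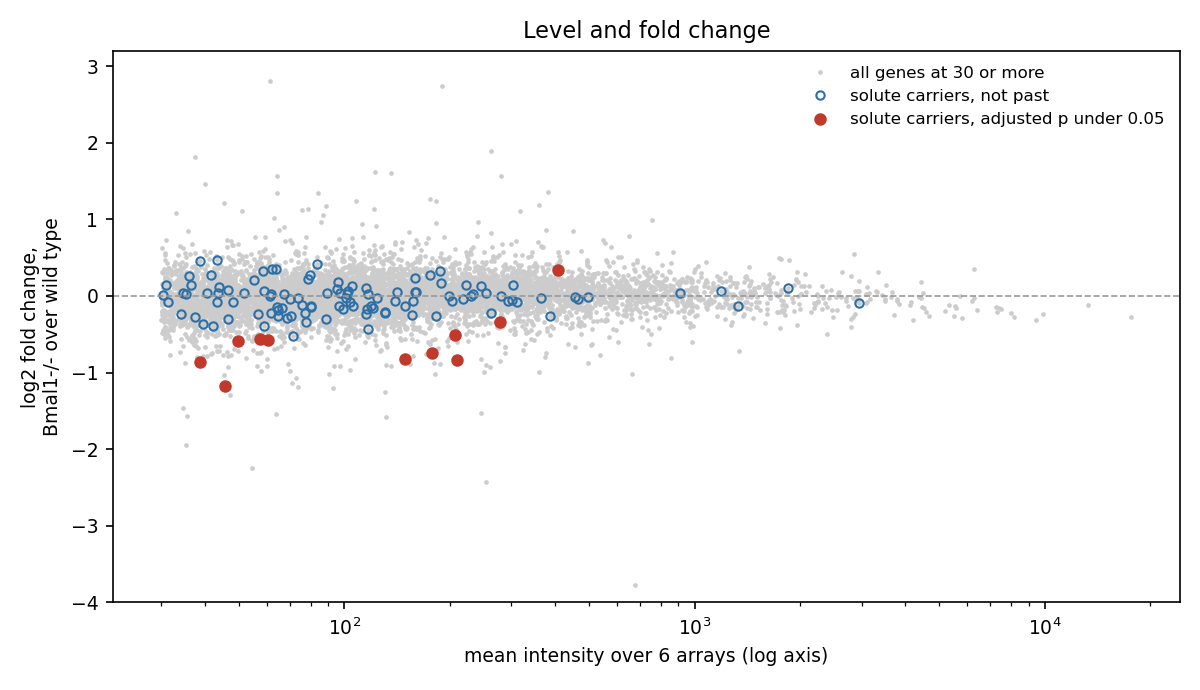
Mean intensity over 6 arrays (log axis) against log2 fold change, arrays labelled Bmal1-/- over wild type, for the 7191 genes at 30 or more (grey), carriers that did not pass (open) and the 11 that did (filled). The 5 carriers above a mean of 500 lie between -0.12 and 0.10, and those that fell have means between 38.6 and 278.

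The count of calls depended on single arrays, and so did the count over the whole table. Without Bmal1-/- replicate 4, 5 or 6 the carriers called lower numbered 4, 4 and 6. Without wild type replicate 1, 2 or 3 they numbered 5, 9 and 3. Slc25a36 was not called in any of these fits but the one without wild type replicate 2, so the number called higher was then 0 in the other 5. The share of carriers called ran from 2.5% without wild type replicate 3, where 2.3% of all probe sets were called, to 8.33% without wild type replicate 2, where 6.92% were. Slc45a3, Slc7a5 and Slc39a11 were the 3 genes called in all 6 of these fits. Slc33a1 was called in 5, the exception being the fit that left out wild type replicate 3 (adjusted p = 0.0548).

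**Figure D3:**
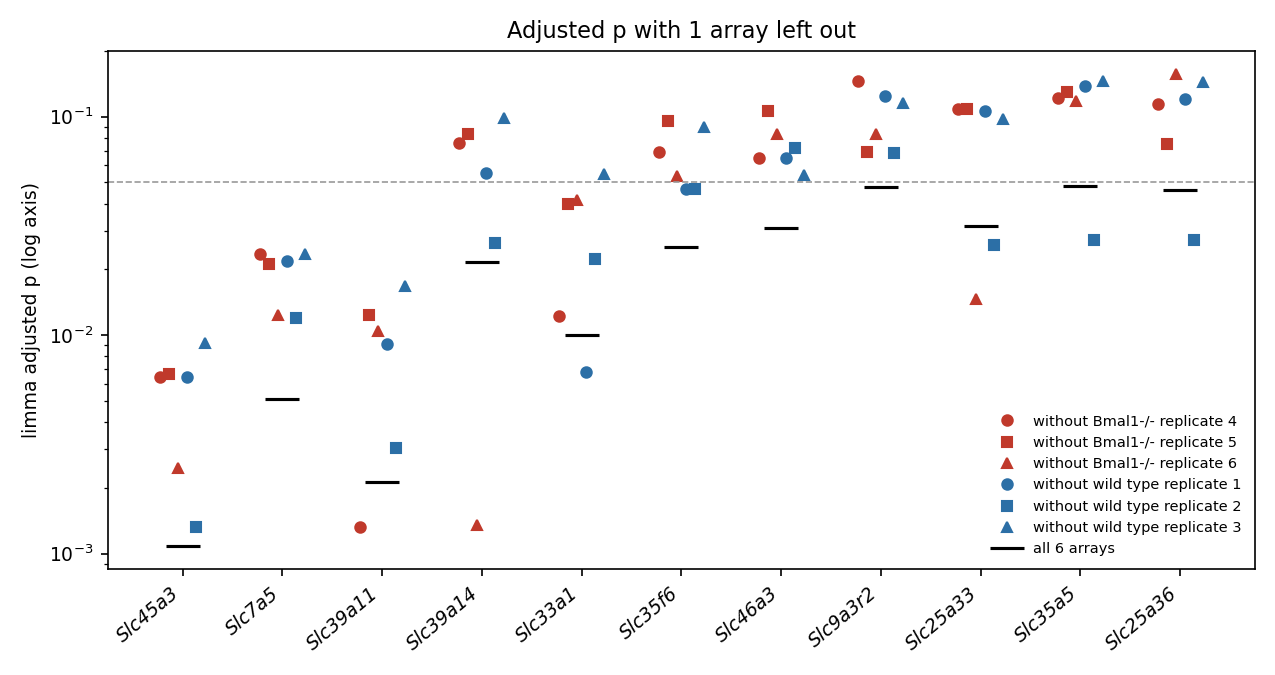
Limma adjusted p (log axis) of the 11 genes with all 6 arrays (black bars) and with 1 array left out (symbols), with the threshold of 0.05 dashed. All symbols of Slc45a3, Slc7a5 and Slc39a11 lie under the threshold, and all symbols of Slc46a3 and Slc9a3r2 lie above it.

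Among sugar carriers, 1 of 8 fell and none rose. For this class and each class below, the shares of the 7191 genes were 2.77% called lower and 3.32% called higher. Slc45a3, a putative sugar transporter best known from the prostate, read 18.5, 20.5 and 26.2 on the arrays labelled Bmal1-/-, against 70.1, 58 and 80.7 in wild type. Even the highest array labelled Bmal1-/- was far below the lowest wild type array. The mean was 21.7 ± 4.00 against 69.6 ± 11.4 (SD, n = 3 each), and limma put the log2 fold change at -1.18 (SE 0.15, adjusted p = 0.00108). Its other probe set moved the same way, at 19.5, 25.2 and 18.7 against 49.1, 53.2 and 46.2 (log2 fold change -0.82, adjusted p = 0.00687). The gene reached a mean of 30 only through wild type. The pseudocount moved its log2 fold change between -1.64 (pseudocount 1) and -0.64 (pseudocount 64). The facilitative glucose transporters did not pass. Slc2a1, the GLUT1 transporter of most cells, averaged 143.5 ± 12.1 on the arrays labelled Bmal1-/- and 139.2 ± 31.2 in wild type (log2 fold change 0.06, adjusted p = 0.869). Slc2a3, the GLUT3 transporter of neurons, had a log2 fold change of 0.04. Slc37a4, which brings glucose 6-phosphate into the endoplasmic reticulum, read 119.9, 119.8 and 119.4 against 130.6, 136.4 and 157.1, without overlap but not past (adjusted p = 0.288).

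Among amino acid and peptide carriers, 1 of 12 fell and none rose, with a class median of 0.04. Slc7a5 encodes LAT1, the light chain that exchanges large neutral amino acids such as leucine and also carries thyroid hormones. It read 18.8, 23.6 and 26.5 on the arrays labelled Bmal1-/-, against 56.9, 53.3 and 52.7 in wild type. The 3 wild type arrays were close together and stood well above the other 3. Its mean was 22.97 ± 3.89 against 54.3 ± 2.27, and the log2 fold change was -0.86 (SE 0.14, adjusted p = 0.00509). It was -1.22 with a pseudocount of 1 and -0.44 with 64, and this gene too reached the limit only through wild type. Its obligate partner on the cell surface, the heavy chain gene Slc3a2, averaged 301 ± 20.4 and 320 ± 22.7 (log2 fold change -0.08, adjusted p = 0.649), with overlap. The other light chains measured, Slc7a8 (LAT2) and Slc7a6, did not pass, at 0.22 and 0.08 on the log2 scale. Slc38a2, a sodium-coupled carrier of small neutral amino acids that cells induce when starved of them, was at -0.07, and the glutamine carrier Slc1a5 at 0.04. Slc38a10 had the highest probe set intensity of the class, 1276 ± 32.5 against 1393 ± 49.6, without overlap between genotypes but with an adjusted p of 0.297.

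Metal carriers were the second largest class, and 2 of 21 fell while none rose. Both belong to the ZIP family (39), which brings zinc and other metals into the cytosol. Slc39a11 (ZIP11) read 173.7, 132.5 and 131.7 on the arrays labelled Bmal1-/-, against 271.1, 247.8 and 298 in wild type, without overlap. Its mean was 146 ± 24.02 against 272 ± 25.1, and the log2 fold change was -0.84 (SE 0.12, adjusted p = 0.00213). Slc39a14 (ZIP14), an importer of zinc, manganese and iron, read 79.1, 86.7 and 149.3, against 183.4, 176 and 218.1 (log2 fold change -0.82, SE 0.18, adjusted p = 0.0217). Replicate 6 stood above the other 2 arrays labelled Bmal1-/-, and without it the log2 fold change was -1.07. That call was lost without replicate 4 or 5 of Bmal1-/- or replicate 1 or 3 of wild type (highest adjusted p = 0.0987). The 6 other ZIP genes did not pass, and their log2 fold changes ran from -0.15 (Slc39a13) to 0.28 (Slc39a3). The dimmer probe set of Slc39a3 went the other way, at -0.36 without overlap (adjusted p = 0.266). Slc39a7 (ZIP7), which releases zinc from the endoplasmic reticulum, averaged 495.9 ± 11.4 and 499.7 ± 38.1.

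None of the 5 zinc exporters (family 30) passed the limma test, and 1 had an unadjusted p under 0.05. Such a p was found for 22.5% of the 7191 genes and 21% of all tested probe sets. Slc30a5 (ZnT5), which loads zinc into the early secretory pathway, read 368.6, 341.3 and 342.1 on the arrays labelled Bmal1-/-, against 445, 412.4 and 413 in wild type. The arrays did not overlap, and the log2 fold change was -0.26 (SE 0.08, adjusted p = 0.0820). Slc30a6, whose product pairs with ZnT5, was at 0.13, and Slc30a7 at -0.02. The iron exporter Slc40a1 (ferroportin), the haem carrier Slc48a1 and the copper importer Slc31a1 had log2 fold changes of -0.13, 0.05 and -0.07, and none passed. A further Slc31a1 probe set of like intensity was lower without overlap, at -0.43, and did not pass either (limma adjusted p = 0.129).

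Of 15 carriers of nucleosides, nucleotide sugars and acetyl-CoA, 3 fell and none rose, where 2.77% of the 7191 genes were called lower. Slc33a1 moves acetyl-CoA into the lumen of the endoplasmic reticulum. It read 150, 124.9 and 110.7 on the arrays labelled Bmal1-/-, against 184.1, 230.4 and 264.7 in wild type, and the mean was 129 ± 19.9 against 226 ± 40.4 (log2 fold change -0.74, SE 0.14, adjusted p = 0.01). Slc35f6, an orphan of the nucleotide sugar family, read 36.8, 33.4 and 39.6, against 57.9, 64.2 and 66.5 (log2 fold change -0.58, SE 0.13, adjusted p = 0.0253). Its second probe set, dimmer, showed no such difference, at 25.4 ± 3.58 against 23.8 ± 2.55 (log2 fold change 0.06). With both averaged the adjusted p was 0.201.

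Slc35a5, another member of the nucleotide sugar family, read 241.7, 245.3 and 243.4 on the arrays labelled Bmal1-/-, against 328.9, 284.7 and 322.2 in wild type. The log2 fold change was -0.34 (SE 0.09, adjusted p = 0.0484), and the call was lost without any array but wild type replicate 2 (highest adjusted p = 0.146). Its other tested probe set was at 0.12, and with all probe sets averaged the adjusted p was 0.480. Slc35a1, which brings CMP-sialic acid into the Golgi, was higher without overlap, at 233.6, 189.5 and 208.2 against 152.2, 168.9 and 169.4, but did not pass (log2 fold change 0.33, adjusted p = 0.0862). Of the 12 genes of family 35, 5 were lower without overlap and 1 was higher, where 13.3% and 12.6% of all tested probe sets were. Slc35b1, which exchanges ATP into the endoplasmic reticulum, averaged 455.3 ± 57.9 and 455.5 ± 7.70.

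Mitochondrial carriers were the largest class, with 27 genes, of which 1 fell and 1 rose. Values were below 0 for 17 of the 27, against 48.6% of the 7191 genes. The pair that changed are close relatives. Slc25a33 and Slc25a36 both encode carriers that move pyrimidine nucleotides across the inner membrane. Slc25a33 fell, at 146.7, 157 and 201.4 on the arrays labelled Bmal1-/-, against 270.1, 222.6 and 244.8 in wild type (log2 fold change -0.51, SE 0.12, adjusted p = 0.0315). Slc25a36 rose, at 455.2, 424.9 and 486.5, against 344.5, 387.6 and 340.8 (log2 fold change 0.34, SE 0.09, adjusted p = 0.0460). The genotypes did not overlap at either gene, which moved in opposite directions. The Slc25a33 call was lost without Bmal1-/- replicate 4 or 5 or wild type replicate 1 or 3 (highest adjusted p = 0.109), and that of Slc25a36 without any array but wild type replicate 2 (highest 0.156). The second Slc25a36 probe set was at -0.06, with overlap, and with both averaged the adjusted p was 0.439.

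Of the 5 carriers with a mean intensity above 500, 4 were mitochondrial, and none of the 5 passed. Slc25a3, which imports phosphate for ATP synthesis, averaged 2859 ± 166 on the arrays labelled Bmal1-/- and 3059 ± 191 in wild type (log2 fold change -0.10, adjusted p = 0.465). The ADP/ATP carriers Slc25a4 and Slc25a5 were at 0.07 and 0.03, but a second Slc25a4 probe set of like intensity was at -0.31 (adjusted p = 0.141) and another at 0.20 (adjusted p = 0.123). Slc25a39, which brings glutathione into mitochondria, was at 0.10, while its next brightest probe set was lower without overlap, at 389.6, 474.3 and 418.6 on the arrays labelled Bmal1-/- against 525.1, 544.5 and 540.7 in wild type (log2 fold change -0.32, adjusted p = 0.0505). Slc25a51, the NAD carrier, at -0.04, and Slc25a46, an outer membrane protein of mitochondrial dynamics, at -0.03. Slc25a20, the carnitine-acylcarnitine carrier of fatty acid oxidation, was at -0.26 (adjusted p = 0.311), and the iron importers Slc25a28 and Slc25a37 were at -0.22 and -0.29, none past.

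**Figure D4:**
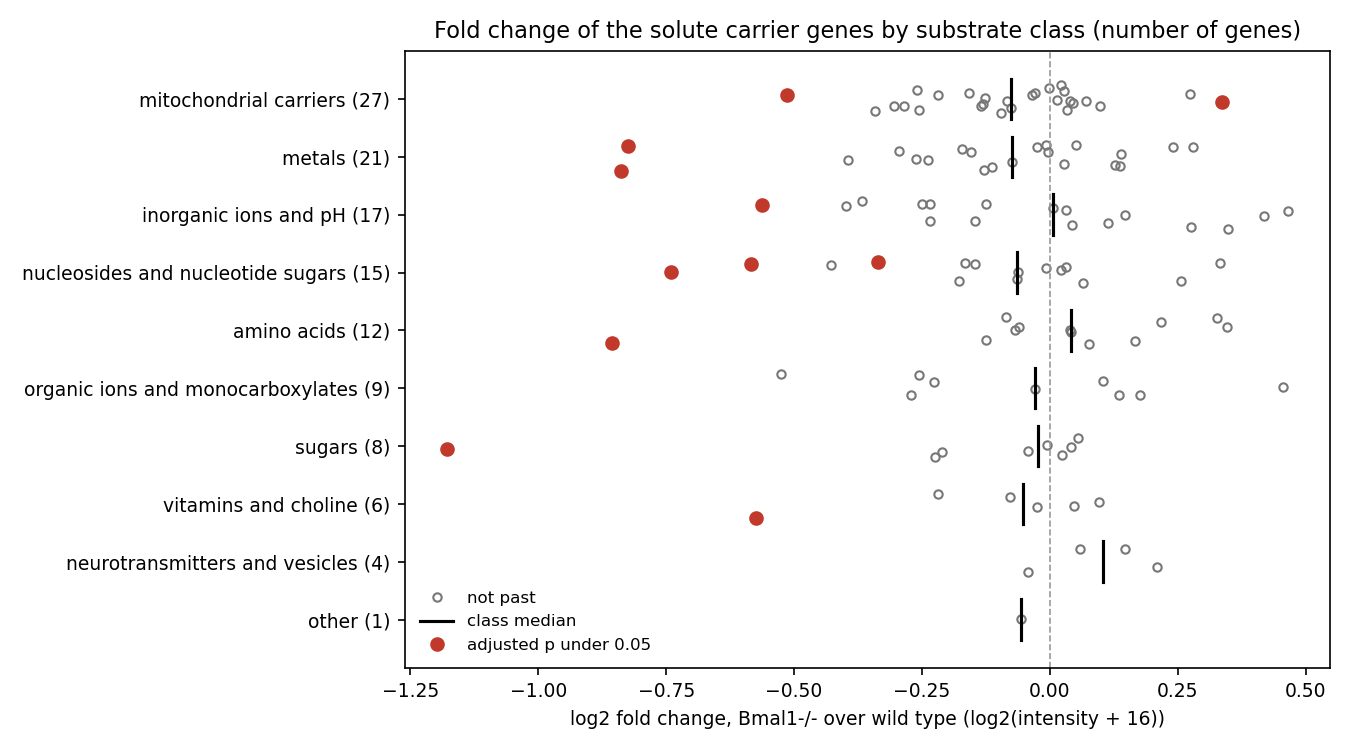
Log2 fold change, arrays labelled Bmal1-/- over wild type, of the 120 carriers by substrate class, with the number of genes in brackets, genes past the test filled and a bar at each class median. Class medians lie between -0.08 and 0.10, and the genes that fell come from 7 classes.

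BMAL1 with its partner CLOCK binds the E-box CACGTG, and DBP and related factors bind D-boxes, searched here as TTANNTAA. Both motifs read the same on both strands and were looked for in the 250 bases before each annotated start, in RefSeq promoters of GRCm38.p6. Promoters were held for 96 of the 120 carriers and for 9 of the 11 that changed. CACGTG was in a promoter of 4 of those 9 genes and of 13 of the 87 others (14.9%), against 10.6% of 5902 array genes at 30 or more and 6.86% of all 27025 genes. TTANNTAA was in 2 of the 9 and 5 of the 87, against 3.98% and 6.3%. The genes with CACGTG include the one that rose as well as 3 that fell. Most of these calls depended on single arrays. With 1 array left out, Slc25a36 and Slc35a5 were lost in 5 of 6 fits, Slc25a33 in 4 and Slc33a1 in 1. Of the 3 carriers called in all 6 of those fits, Slc45a3 and Slc39a11 have no CACGTG and Slc7a5 had no promoter held. Stretches of 100 bases that hold CACGTG are shown first, 5′ to 3′ on the strand of the gene, with the motifs in capitals, because they mark which changed carriers have E-box letters near the start. All 4 lie on the minus strand, the Slc25a33 stretch at chr4:149774268-149774367, that of Slc25a36 at chr9:97111175-97111274, that of Slc33a1 at chr3:63964805-63964904 and that of Slc35a5 at chr16:45158687-45158786.
Slc25a33: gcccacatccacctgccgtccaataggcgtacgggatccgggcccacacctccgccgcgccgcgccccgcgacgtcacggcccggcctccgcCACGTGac
Slc25a36: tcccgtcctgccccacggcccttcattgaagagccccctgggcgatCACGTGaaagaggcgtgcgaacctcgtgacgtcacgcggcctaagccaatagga
Slc33a1: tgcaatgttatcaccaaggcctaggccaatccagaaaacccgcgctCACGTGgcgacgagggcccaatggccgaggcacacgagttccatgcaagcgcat
Slc35a5: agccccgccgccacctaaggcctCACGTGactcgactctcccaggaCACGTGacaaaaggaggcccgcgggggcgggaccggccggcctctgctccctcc
The first base of the motif lies 8 bases before the start in Slc25a33, 187 before it in Slc25a36 and 125 before it in Slc33a1. Slc35a5 has a pair of them, 90 and 67 bases before the start. Matches to TTANNTAA are in capitals in the next pair of stretches. Slc33a1 has TTAAATAA, 203 bases before the start on the minus strand at chr3:63964883-63964982. In 1 of its 2 promoters Slc45a3 has TTACCTAA, 219 bases before the start on the plus strand at chr1:131962665-131962764. A match to the loose pattern does not show that either is a D-box.
Slc33a1: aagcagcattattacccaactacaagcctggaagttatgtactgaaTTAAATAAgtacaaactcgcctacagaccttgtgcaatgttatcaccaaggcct
Slc45a3: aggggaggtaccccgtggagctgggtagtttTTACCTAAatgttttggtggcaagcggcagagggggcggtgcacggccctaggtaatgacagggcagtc
A match describes letters in a window and does not show binding.

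Among carriers of inorganic ions and regulators of pH, 1 of 17 fell and none rose, with values spread to both sides (median 0.01). The gene that fell, Slc9a3r2, encodes NHERF2, a scaffold that anchors the sodium/proton exchanger NHE3 and is no carrier itself. It read 32.4, 50.4 and 47.7 on the arrays labelled Bmal1-/-, against 74.8, 69.2 and 69.2 in wild type (log2 fold change -0.56, SE 0.15, adjusted p = 0.0478). Its 4 other tested probe sets were all below 0, between -0.37 and -0.02, and none passed. The call ended when any array was left out (highest adjusted p = 0.145). The related scaffold Slc9a3r1 (NHERF1) went the other way without passing, at 193 ± 9.95 against 157 ± 10.97 (log2 fold change 0.28, adjusted p = 0.128).

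The cation-chloride cotransporters, which set the chloride of the cell, did not pass. Slc12a5 (KCC2), the chloride extruder of neurons, read 112.2, 78.7 and 104.2 on the arrays labelled Bmal1-/-, against 67.6, 65.1 and 74.1 in wild type (log2 fold change 0.42, adjusted p = 0.0981). Slc12a4 (KCC1) was lower without overlap, at 29.5, 30.8 and 37 against 45.9, 44.3 and 48.8 (log2 fold change -0.37, adjusted p = 0.147). Slc12a2 (NKCC1), which loads chloride, was at -0.25 with overlap. Slc4a10, a sodium-dependent bicarbonate importer, was higher without overlap at 71.4 ± 5.50 against 52.7 ± 4.4 (log2 fold change 0.35, adjusted p = 0.135).

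Slc20a2 (PiT2), a sodium-phosphate importer, was higher on the arrays labelled Bmal1-/- in both of its probe sets. The brighter one read 61.6, 51.1 and 45.4, against 31, 30.7 and 39.4 (log2 fold change 0.46, adjusted p = 0.0900), and the other 57.5, 53.4 and 47.8, against 20.2, 27.4 and 30.6 (log2 fold change 0.72, SE 0.15, adjusted p = 0.0183). The second alone passed, and with both averaged the gene passed as well. Slc25a5 was the other carrier called on a dimmer probe set alone. That probe set, the dimmest of its 8, was at -0.80 (adjusted p = 0.0488), while the 7 others lay between -0.23 and 0.13. These genes were picked out after their values were seen.

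**Figure D5:**
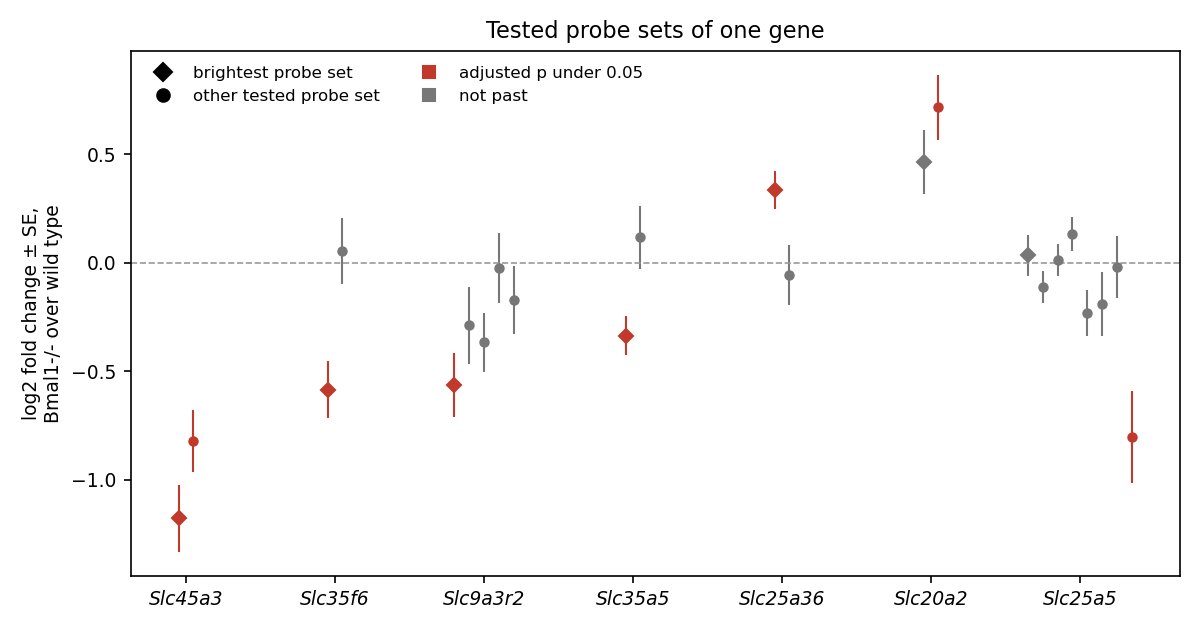
Log2 fold change ± SE, arrays labelled Bmal1-/- over wild type, of each tested probe set (diamond for the brightest, circles in order of falling intensity) for the changed carriers with more than 1 and for Slc20a2 and Slc25a5. The probe sets of Slc45a3 both lie below 0 and past the threshold, whereas the second probe sets of Slc35f6, Slc35a5 and Slc25a36 lie on the other side of 0.

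Of 46 carriers with more than 1 tested probe set, the signs were the same across probe sets in 22 and differed in 24. Probe sets of a gene can match different transcript ends, and the call of a gene here is that of its brightest probe set.

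None of the 9 carriers of organic ions, fatty acids and monocarboxylates passed the limma test. An unadjusted limma p under 0.05 was found for 2 of them, and for 22.5% of the 7191 genes. Slc27a2, which activates and imports very long chain fatty acids, came nearest, at 46.2, 62.5 and 57.9 on the arrays labelled Bmal1-/-, against 86.3, 75.2 and 99.2 in wild type. The arrays did not overlap, and the log2 fold change was -0.52 (SE 0.14, adjusted p = 0.0509). It passed without wild type replicate 2 (adjusted p = 0.0365), with robust variance estimates (0.0463), among the brightest 40% of probe sets (0.0481) and in the fit on gene averages (0.0339). Slco3a1, an organic anion and prostaglandin transporter, was higher without overlap, at 58.4, 41.9 and 42.1 against 26, 32.5 and 31.7 (log2 fold change 0.46, adjusted p = 0.107). Its 2 other tested probe sets overlapped, at 0.02 and -0.25. Slc16a1 (MCT1), which carries lactate and pyruvate, was at -0.26 (adjusted p = 0.294).

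Of 6 carriers of vitamins and choline, 1 fell. Slc46a3, a lysosomal transporter classed here with the folate carrier of its family, read 48.3, 42.1 and 45.4 on the arrays labelled Bmal1-/-, against 71.8, 88.3 and 66.8 in wild type (log2 fold change -0.57, SE 0.14, adjusted p = 0.0311). The groups were apart, but the call ended when any array was left out (highest adjusted p = 0.106). The ascorbate carrier Slc23a2, which serves amidation of peptide hormones by supplying vitamin C, was at -0.22 (adjusted p = 0.313). The choline carrier Slc44a1 was at -0.03.

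Neurotransmitter and vesicular carriers were few, and none of 4 passed the limma test or had an unadjusted p under 0.05. Slc6a17, a synaptic vesicle carrier of neutral amino acids, averaged 233 ± 12.6 on the arrays labelled Bmal1-/- and 210 ± 28.3 in wild type (log2 fold change 0.15, adjusted p = 0.470). Slc6a8, the creatine transporter, was at 0.21 without overlap (adjusted p = 0.437), but its other tested probe set was at -0.43, also without overlap (adjusted p = 0.176). Slc17a6, the vesicular glutamate transporter VGLUT2, was at -0.04. The 1 carrier in no other class, Slc66a2, was at -0.06.

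At the intensity limit, the 4 genes just inside were Slc11a2, Slc44a3, Slc8a1 and Slc25a24, with means of 34.03, 31.3, 30.9 and 30.2. The 4 just outside were Slc35e4, Slc66a1, Slc19a1 and Slc9a8, with means of 29.6, 28.2, 26.9 and 26.8. Of the 153 genes below the limit, 20 were bright enough to be tested, and none of those passed the limma test. An unadjusted limma p under 0.05 was reached by 1 of the 20, against 21% of all tested probe sets. Inside the limit, 4 carriers had a mean under 30 on the arrays labelled Bmal1-/-, among them the called genes Slc45a3 and Slc7a5, and 1, Slc8a1, had a mean under 30 in wild type. A gene that reaches the limit through 1 genotype is bound to differ in that direction.

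Carriers depend on proteins that power or place them. A list of 96 genes held such partners and also 36 ABC transporters and 8 water channels. Of the 53 measured at 30 or more, 4 rose (7.55%) and 1 fell (1.89%), against 2.75% and 2.78% of all tested probe sets and 3.32% and 2.77% of the 7191 genes. Atp1b1, a beta subunit of the sodium pump that maintains the gradient used by many carriers, read 2233, 2215 and 2365 on the arrays labelled Bmal1-/-, against 1769, 1892 and 1933 in wild type (log2 fold change 0.28, SE 0.06, adjusted p = 0.0267). Its 3 other tested probe sets were also above 0, and 1 of them passed (log2 fold change 0.59). Atp1b2, another beta subunit, averaged 226 ± 20.2 and 158 ± 5.55 (log2 fold change 0.48, adjusted p = 0.0170), and its other probe set was at 0.28, not past. The ABC transporter genes Abcd3, of the peroxisomal membrane, and Abca4, which clears retinoid from photoreceptor discs, rose too (log2 fold changes 0.39 and 0.77), and Abca8a fell to 23.3 ± 2.86, against 52.4 ± 0.361 in wild type (log2 fold change -0.80, adjusted p = 0.00585). Abca8a reached a mean of 30 only through wild type.

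The vacuolar proton pump, which drives vesicular carriers, had no subunit past the limma test among 15. Log2 fold changes ran from -0.24 to 0.26, and 3 had an unadjusted limma p under 0.05, against 22.5% of the 7191 genes. Bsg (basigin) and Emb (embigin), the chaperones that take lactate carriers to the surface, were higher without overlap, at 2088 ± 59.8 against 1799 ± 145 and at 941 ± 58.8 against 805 ± 42.4. Neither passed (adjusted p = 0.101 and 0.115). They are among 9 measured chaperones and regulators of carriers, none of which passed. Wnk1, Nedd4l, Slc9a3r1, Oxsr1 and Stk39 were also higher without overlap, while Txnip and Sgk1 overlapped. Over all tested probe sets, 12.6% were higher without overlap. Listed calcium and copper pumps and water channels did not pass.

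Some markers of several cell types were called, at most 2 in a list, where 6.09% of the 7191 genes were called. The part of cell types in the carrier differences was not tested. Of 5 macrophage markers C1qa fell, and their summed intensity was 252 to 301 on the arrays labelled Bmal1-/-, against 372 to 412 in wild type (166.6 to 209, against 252.5 to 280.2, without C1qa). Csf1r was lower without overlap (log2 fold change -0.43) and Lyz2 with overlap (-0.50), neither past. Cd68 and Ptprc overlapped, both at -0.08. Of 4 fibroblast and pericyte markers Dcn fell, and the sum was 513 to 532, against 723 to 780. Without Dcn the other 3 summed to 240.3 to 275.5, against 240.2 to 299.3, with overlap, and Col1a1 was higher without overlap (adjusted p = 0.495). Of 6 folliculostellate markers Cst3 and Aldh1a2 rose, and the sum was 4337 to 4787, against 3717 to 4027. Without those 2 genes the sums overlapped, at 974.7 to 1074 against 938 to 1094. Anxa1 was lower without overlap and did not pass, at 26.4 ± 2.93 against 49 ± 18.1 (adjusted p = 0.0899), and S100b was under 16 on every array. Hormone cell genes summed to 56490 to 58957, against 62086 to 70630, with Gh and Cga lower of the 9 measured. The other 7 summed to 32897.6 to 34276.7, against 34094.6 to 38764.8, with overlap. Among them Pomc and Fshb were lower without overlap and did not pass (log2 fold changes -0.24 and -0.28, limma adjusted p = 0.0731 and 0.0945). Prl, Lhb, Tshb, Chga and Pitx1 overlapped, with Lhb and Pitx1 above 0. The sums overlapped between genotypes for endothelial genes (618 to 701, against 508.5 to 620), among which Plvap rose, and for pituicyte, axon and myelin genes (295.1 to 327, against 295.1 to 427), among which Mbp rose and Rax was under 16 on every array. In that list Oxt and Nefm were lower without overlap and did not pass, at 94.3 ± 11.5 against 150.6 ± 39.02 (adjusted p = 0.0565) and at 34.5 ± 5.12 against 56.1 ± 9.30 (adjusted p = 0.0684). Without Mbp the list summed to 147.7 to 179, against 210.7 to 327.4. The sums overlapped for red cell genes as well (59.8 to 108, against 68.1 to 117), with Hba-a1 under 16 throughout. Of the melanotroph markers Pax7 alone was on the array, at 4.0 to 14.4 against 0.8 to 16.3.

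None of the 120 carriers lies within 20 Mb of Arntl, and 4 lie elsewhere on its chromosome, none of them called.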

How the data were processed

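Total RNA of 6 pools (1 ug each) was labelled for an Affymetrix mouse 3′ array. The deposited table gives 1 linear intensity per probe set and array, made by the authors with MAS5 per the submitters' processing notes. No source used here gives its version, scaling target or detection calls. MAS5 subtracts a mismatch background, so low values are noisy. In the files, the mean after trimming 2% at each end was alike on all arrays (99.4). The median intensity was not, at 31.7 to 32.2 on the arrays labelled Bmal1-/- and 33.5 to 34.3 in wild type. With array medians over the tested probe sets made equal, 10 carriers were called lower and 1 higher. Of 22690 probe sets, 64 controls were left out. The platform annotation pairs 20380 with 1 gene, and no gene was named from a probe set with several. All 120 genes matched the mouse RefSeq table.

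Values were taken as log2(intensity + 16), and fold changes on this scale understate those of dim genes. The brightest 60% (13576 probe sets by mean log2 level) were fitted with limma 3.58.1 in R 4.3.3 (lmFit, eBayes with trend, two-sided), with Benjamini-Hochberg adjustment over all of them and a threshold of 0.05. The genes were named by rule: every carrier past the threshold, the 12 with the highest intensity, 2 per class where none passed, 4 at each side of the limit, and the companions past it. Other genes named are their relatives or those without overlap, and were chosen after their values were seen. The genes and lists were chosen with earlier results of these data known. The fit was tested on simulated data. Alternatives were other pseudocounts (1 and 64), normalizations, filters, variance models and intensity limits, gene averages, and each array left out in turn.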

Additional observations from a re-analysis of the deposited data

How the results depend on the processing

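The number of carriers called lower (10) was 6 when the variance prior had no trend on intensity, 4 with no filter on low values, 5 with an intensity limit of 100, and 3 to 9 with 1 array left out. The number called higher (1) was 0 without the trend, with no filter, and after quantile normalization, and 0 to 1 with 1 array left out. The companion genes called higher (4) numbered 2 without the trend and 1 to 6 with 1 array left out, and those called lower (1) numbered 2 with array weights, with robust estimation and after quantile normalization, and 1 in each fit without 1 array. The median log2 fold change of the carriers (-0.04) was -0.070 on gene averages and lay between -0.063 and -0.033 with 1 array left out. Over all probe sets, 752 calls became 407 without the trend and 330 with no filter. No sign of a called gene turned under the alternatives run. The fits without 1 array hold fewer arrays, and the fit with no filter adjusts over 22626 probe sets; the cause of the other changes was not tested. With 3 arrays per genotype and MAS5 values, changes of carriers with intensities near 30 are the least certain. No paired analysis was possible because the genotypes share no replicate number.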
